A study of Homo sapiens with 8 samples.

Results

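Collagen genes encode the alpha chains of the collagens, the main structural proteins of the extracellular matrix. They were taken here as every gene whose name in the array annotation reads COL, a number, A and a number, which gave 43 genes with 65 probes among 50599 distinct probes for 34423 gene names. Another 4 names that begin alike, *COL18A1-AS1*, *COL4A3BP*, *COL6A4P1* and *COL6A4P2* (8 probes), do not have this form and were left out. Their transcripts were measured on 8 one-color arrays in HCT116, a human colorectal cancer cell line of epithelial origin. CONT1 and CONT2 were clones transfected with a vector for a negative control miRNA, while the clones TET1-KD1 and TET1-KD2 each carried a vector for a different artificial miRNA against *TET1*, which encodes a dioxygenase that oxidizes 5-methylcytosine. All 4 clones carried the same GFP-marked vector backbone and had been selected with G418. Each clone was analyzed untreated (0 µM) and after 1 µM 5-aza-dC, an inhibitor of DNA methyltransferases, for 72 h, so that each of the 4 groups had 2 arrays, 1 from each clone. Each clone came from a single isolated colony, and a property of 1 clone cannot be told apart from an effect of its miRNA. The titles of the arrays were followed for the treatment, because a separate field of the labels contradicts them by giving 1 treatment to all 4 arrays of a kind of clone.

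Collagen chains assemble into helical molecules that are grouped into classes by their form. Fibrillar collagens such as types I and III build fibrils, and the FACITs (fibril-associated collagens with interrupted helices) bind to the surface of fibrils. Type IV collagens form the network of basement membranes, type VI collagens form beaded filaments, and transmembrane collagens span the cell membrane. In the colon, fibroblasts of the stroma make most fibrillar collagen, whereas epithelial cells contribute mainly to the basement membrane. Many collagen genes have CpG-rich promoters, and DNA methylation of such promoters goes along with a silent gene.

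Signals are given as log2 of the background-subtracted intensity after every array had been scaled to the same 75th percentile. The lowest signal called above background on an array lay between 3.98 and 4.61. Without drug, *TET1* itself had log2 signals of 9.70 and 9.75 in the control clones, 8.65 in TET1-KD1 and 9.41 in TET1-KD2. After 5-aza-dC, its signals were 9.64, 9.64, 8.99 and 9.48 in the same order. *TET1* was thus lowest in TET1-KD1 and lower in both knockdown clones than in both control clones, but the difference did not pass the test (log2 difference -0.69 untreated, adjusted p = 0.610, and -0.40 after 5-aza-dC, adjusted p = 0.360, limma). By RT-qPCR, the study reported lower *TET1* mRNA in both knockdown clones, with the larger reduction in TET1-KD1. CONT1 and CONT2 after 5-aza-dC were hybridized on a second slide, apart from the remaining 6 arrays, so that slide and treatment cannot be told apart in the control clones. On that slide, spike-in transcripts of medium brightness differed by up to -0.57 on the log2 scale from the other slide, and the brightest one by 0.40. Over all tested probes, the median control response went from 0.14 for probes with less than 40% GC to -0.71 for probes with 60% GC or more, and the median knockdown response from -0.10 to -0.07. Counts of collagen genes after correction for GC content or spike-ins, and from the arrays of the first slide alone, are given below. Genes that lost a call in this way are named in part, and genes that gained one are not named.

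Transcripts of many collagen genes were above background in HCT116. At least 1 probe was above background on all 8 arrays for 23 of the 43 genes. For 13 genes, no probe was above background on any array, treated or not: the fibrillar *COL1A2*, *COL2A1*, *COL3A1*, *COL5A3* and *COL11A1*, the type VI chains *COL6A5* and *COL6A6*, *COL8A1*, the FACITs *COL19A1*, *COL21A1* and *COL22A1*, the transmembrane *COL25A1*, and *COL15A1*. *COL3A1*, which encodes the chain of type III collagen, had signals between 1.82 and 2.44 on the 8 arrays. *COL1A2*, the partner chain of *COL1A1* in type I collagen, had 2.27, 2.09, 2.11 and 2.50 without drug in CONT1, CONT2, TET1-KD1 and TET1-KD2, and 4.55, 3.50, 3.81 and 3.49 after 5-aza-dC, all of them not well above background. *COL4A3* was above background on 3 arrays and entered no test. The other 29 genes were tested, each by its brightest tested probe. Of these, 6 (*COL4A1*, *COL6A3*, *COL8A2*, *COL9A1*, *COL24A1* and *COL28A1*) entered the test through 1 or both treated groups only, and a gene that enters in this way has to differ from the other group in part by construction.

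Members of several classes are given first, with the 4 untreated arrays in the order CONT1, CONT2, TET1-KD1 and TET1-KD2. Among the basement membrane chains, *COL4A5* had 9.91, 9.21, 9.94 and 10.48, and *COL4A4* 8.99, 9.53, 9.03 and 8.58. *COL13A1*, a transmembrane collagen, had 8.03, 9.09, 8.78 and 7.89. *COL7A1*, the chain of the anchoring fibrils below epithelia, was close among the clones, with 7.07, 7.05, 6.94 and 6.76. *COL10A1*, a short-chain collagen of growth plate cartilage, had 5.83, 5.41, 6.11 and 6.10, and *COL28A1* 4.70, 4.08, 3.06 and 4.48, close to background. *COL18A1*, the source of endostatin, lay between 11.32 and 13.21, and the FACIT *COL12A1* between 10.89 and 12.90. After 5-aza-dC, *COL4A5* had 9.34, 8.89, 10.60 and 9.62, *COL13A1* 9.69, 10.11, 9.67 and 9.13, *COL7A1* 6.92, 7.77, 7.28 and 6.47, and *COL10A1* 6.52, 5.74, 5.89 and 5.81 in the same order. *COL4A4* then had 8.62, 9.39, 9.27 and 8.20, and *COL28A1* 3.98, 3.52, 4.56 and 4.37. For these 6 genes the treated arrays lay within or near the untreated range, except that *COL13A1* was higher in each clone than before treatment. Levels of different probes are not compared here, since brightness also depends on the probe.

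In the control clones, collagen genes of several classes were higher after 5-aza-dC, and none of the 29 was lower by the test. Treated CONT1 and CONT2 lay on a separate slide, so slide and treatment cannot be told apart in these values. Since each group held 1 array of each of 2 clones, p-values here measure the spread between clones. A rise passed in 12 of 29 genes (limma, Benjamini-Hochberg adjusted p below 0.05), while 41.8% of all 19688 tested gene names changed in either direction, 20.5% higher and 21.3% lower. The share of collagen genes that changed was thus the same as in the background, but all of them rose. At an unadjusted p below 0.05, 14 collagen genes differed (51.2% of all gene names), *COL9A1* being the only lower one. The median log2 fold change over the 29 genes was 0.92 (-0.05 over all gene names), and it was also 0.92 with genes that have only a lower limit set to that limit. Without the filter on dim probes, 12 of 43 genes passed with a median of 0.64. These were not the same 12 genes, since *COL1A1*, *COL5A2* and *COL27A1* no longer passed. Among the 23 genes above background on all arrays, 9 passed with a median of 0.84. The shares over all gene names under these filters are not given here. By class, 5 of 6 fibrillar, 3 of 7 FACIT, 1 of 5 basement membrane, 1 of 3 type VI, 1 of 3 transmembrane and 1 of 2 short-chain genes rose, and *COL7A1*, *COL18A1* and *COL28A1* did not pass.

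**Figure D1:**
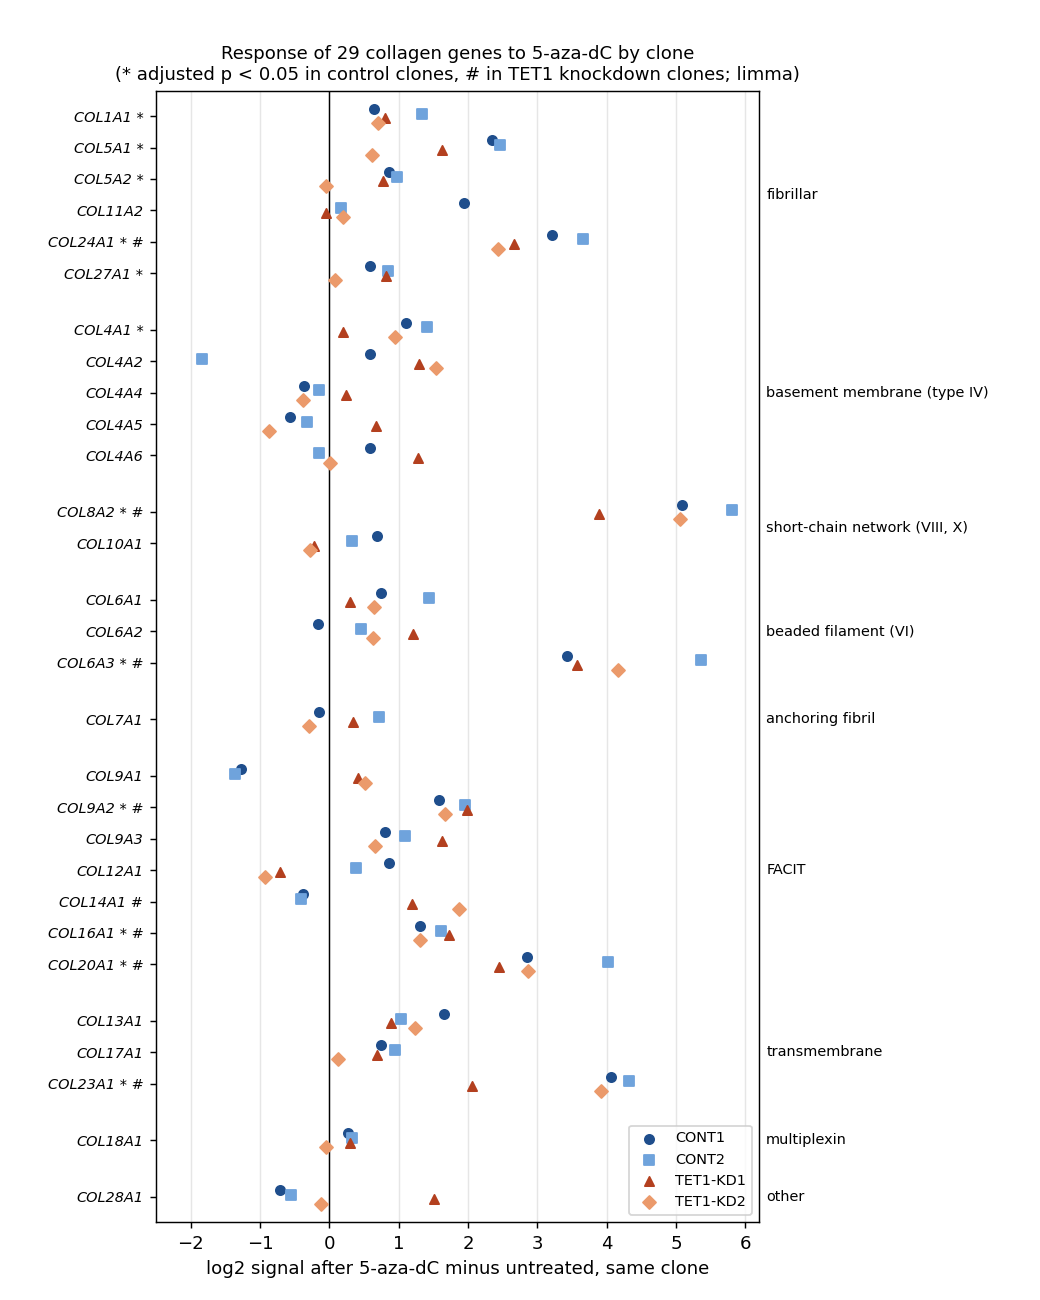
Response of the 29 tested collagen genes to 5-aza-dC, grouped by class: the x axis is the log2 signal after treatment minus that of the untreated culture of the same clone, and each point is 1 clone, with * and # marking genes that passed in the control and the knockdown clones. The points of *COL8A2*, *COL6A3*, *COL23A1*, *COL20A1* and *COL24A1* all lie above 2, whereas those of the type IV genes *COL4A4*, *COL4A5* and *COL4A6* fall on both sides of 0.

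In the knockdown clones, 8 of 29 genes rose and none fell (limma, adjusted p below 0.05), while 12.5% of all gene names changed, 9.45% higher and 3.09% lower. At an unadjusted p below 0.05, 12 collagen genes differed (29% of all gene names), all of them higher. By the probe-wise t-test named in the study's methods, none of the 29 passed. The share of all gene names that passed this t-test is not given here, so that count cannot be read as particular to collagen genes. The median log2 fold change was 0.69 (-0.06 over all gene names), or 0.57 with genes that have only a lower limit set to that limit. By class, 4 of 7 FACIT, 1 of 6 fibrillar, 1 of 3 type VI, 1 of 3 transmembrane and 1 of 2 short-chain genes rose, and none of the 5 basement membrane genes passed. Of the 12 genes that rose in the control clones, 7 (58.3%) also rose in the knockdown clones, and these were 87.5% of the 8 genes there. Over all gene names, 41.5% of those that rose in the control clones also rose in the knockdown clones, and these were 90.1% of those that rose there. The 7 genes were *COL6A3*, *COL8A2*, *COL9A2*, *COL16A1*, *COL20A1*, *COL23A1* and *COL24A1*. The number depended on single arrays, as 4 genes passed without the treated TET1-KD2 array and 4 without the untreated TET1-KD1 array. The shares over all gene names without these arrays are not given here.

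A response above 0 in all 4 clones was seen for 15 of the 29 genes, against 23.9% of all gene names. The median response over the 29 genes was 0.74 (CONT1), 0.94 (CONT2), 0.89 (TET1-KD1) and 0.63 (TET1-KD2), and the median over all gene names lay between -0.07 and -0.04 in the 4 clones. The collagen medians of the 2 kinds of clone thus overlapped.

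*COL8A2* encodes a chain of type VIII collagen, a short-chain collagen of the cornea and the vessel wall. It was not well above background in untreated cells, with 2.16, 2.00, 2.02 and 2.41 in CONT1, CONT2, TET1-KD1 and TET1-KD2, and it reached 7.24, 7.81, 5.91 and 7.47 after 5-aza-dC. Every treated array lay above every untreated one, and TET1-KD1 was the lowest of the treated arrays. For a gene of this kind, only a lower limit of the fold change can be given, measured against the lowest signal above background. This limit is nominal, since a probe that is not above background can read higher than that signal. *COL1A2* did so on treated CONT1, with 4.55 against 4.40. The p-values beside such limits belong to the fitted difference, which uses signals below background, and not to the limit itself. *COL8A2* rose at least 9.26-fold in the control clones (adjusted p = 0.000616, limma) and at least 4.87-fold in the knockdown clones (adjusted p = 0.00261, limma). Its probe lies at chr1:36560863-36560922 (hg19, minus strand), and a second probe at chr1:36563302-36563361 rose as well in the control clones, at least 3.25-fold (adjusted p = 0.00289, limma). In the knockdown clones, the second probe was above background on 1 treated and no untreated array and did not pass (adjusted p = 0.0940, limma). The size of its change there is not measured.

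*COL6A3*, the long chain of the type VI filaments, had 2.08, 1.92, 1.92 and 2.29 without drug and 5.51, 7.28, 5.49 and 6.46 with drug, in the same order of clones. Treated CONT1 was as low as treated TET1-KD1, so the kinds of clone overlapped. It rose at least 4.22-fold in the control clones (adjusted p = 0.00246) and at least 2.97-fold in the knockdown clones (adjusted p = 0.00997, limma; chr2:238234204-238234263, hg19, minus strand). The other type VI chains did not pass in either kind of clone: *COL6A1* had log2 fold changes of 1.09 and 0.47 and *COL6A2* of 0.14 and 0.92.

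*COL24A1*, a fibrillar collagen known from bone, was also not well above background on the untreated arrays, with 2.63, 2.60, 2.25 and 2.42. After 5-aza-dC it had 5.85 and 6.26 in the control clones and 4.92 and 4.85 in the knockdown clones, with no overlap between the kinds of clone. It rose at least 3.34-fold in the control (adjusted p = 9.2e-05) and at least 1.40-fold in the knockdown clones (adjusted p = 0.000412, limma). Both p-values belong to the fitted log2 differences of 3.44 and 2.55, which rest on untreated signals below background. With normexp background correction, the rise in the knockdown clones no longer passed (log2 fold change 0.49).

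*COL23A1* encodes a transmembrane collagen and was bright without drug, with 10.97, 10.76, 10.89 and 10.73. The treated arrays had 15.04, 15.09, 12.95 and 14.65, so that the 4 clones started together and TET1-KD1 stayed behind. The log2 fold change was 4.20 in the control clones (18.3-fold, standard error 0.503, adjusted p = 0.00159) and 2.99 in the knockdown clones (7.93-fold, standard error 0.503, adjusted p = 0.0142, limma). This probe lies at chr5:177989030-177989089 (hg19, minus strand). A probe at the other end of the gene, chr5:177664805-177664864, was above background on 1 array only, treated TET1-KD2, with 4.72. The rise of *COL23A1* is therefore a result of 1 probe.

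Further FACIT genes rose in both kinds of clone. *COL20A1* went from 5.53 and 4.47 to 8.38 and 8.49 in CONT1 and CONT2, and from 4.69 and 5.18 to 7.14 and 8.05 in TET1-KD1 and TET1-KD2. Its log2 fold changes were 3.43 (10.8-fold, adjusted p = 0.00203) and 2.66 (6.33-fold, adjusted p = 0.0131, limma). A second *COL20A1* probe, also above background on all 8 arrays, had smaller responses of 0.57, 0.48, 0.80 and 1.97, and it did not pass in the control clones (0.53, 1.44-fold, adjusted p = 0.213) but did in the knockdown clones (1.39, adjusted p = 0.0371, limma). *COL9A2*, a chain of the type IX collagen of cartilage, had similar values in the 4 clones, with responses of 1.58, 1.96, 1.98 and 1.67. It went from 7.22, 7.05, 6.50 and 6.77 to 8.80, 9.00, 8.49 and 8.44 and rose by 1.77 in the control clones (3.41-fold, standard error 0.169, adjusted p = 0.000695) and by 1.82 in the knockdown clones (3.54-fold, standard error 0.169, adjusted p = 0.0012, limma). *COL16A1* behaved alike and went from 7.95, 7.83, 6.92 and 7.68 to 9.27, 9.44, 8.65 and 8.98, log2 fold changes of 1.46 (adjusted p = 0.00785) and 1.52 (adjusted p = 0.0183, limma). *COL9A3*, another type IX chain, had responses of 0.81, 1.09, 1.62 and 0.66 and did not pass (adjusted p = 0.115 and 0.140, limma).

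**Figure D2:**
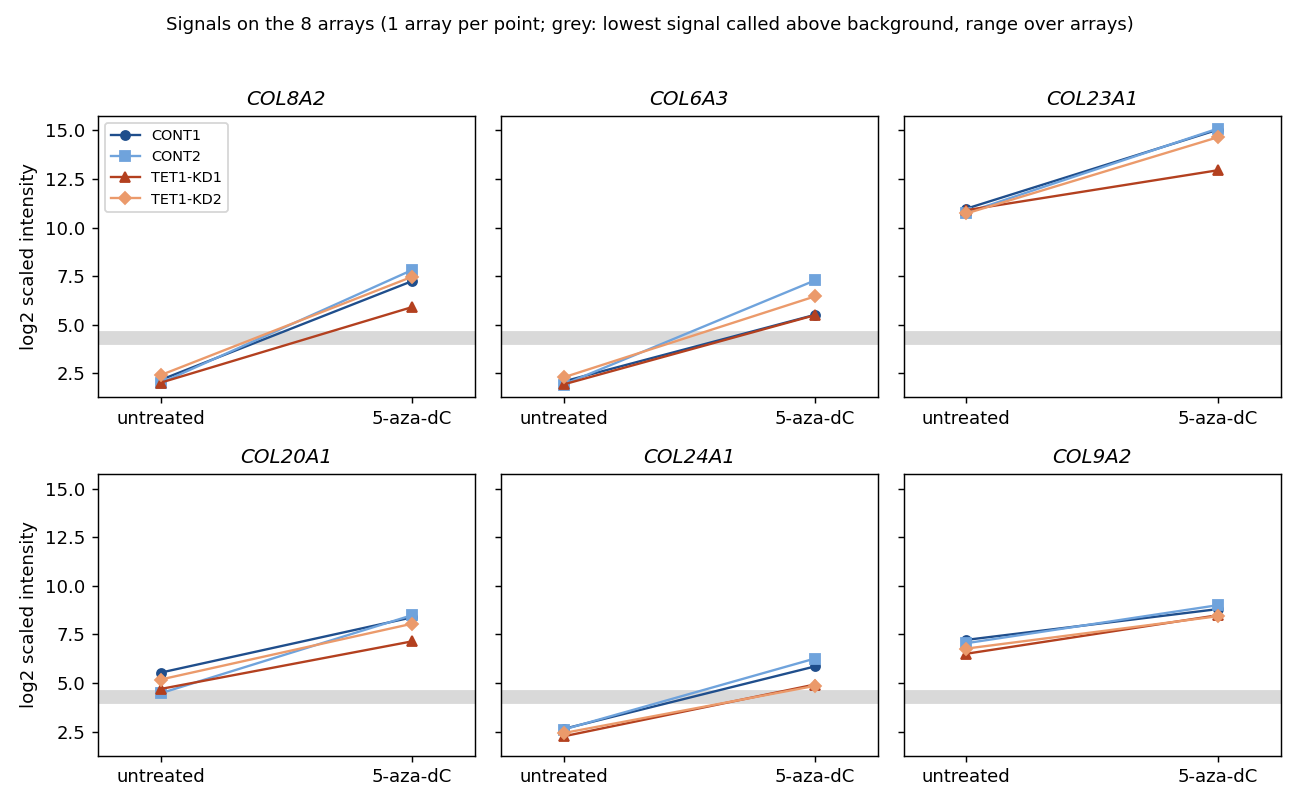
Log2 signal (y axis) of the 6 collagen genes with the largest mean response among those that passed in both kinds of clone, untreated and after 5-aza-dC (x axis), with 1 line per clone and 1 array per point. The grey band, 3.98 to 4.61, is the range over the arrays of the lowest signal above background; *COL8A2*, *COL6A3* and *COL24A1* start below it and *COL23A1*, *COL20A1* and *COL9A2* do not.

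Of the other fibrillar genes, *COL1A1*, *COL5A1*, *COL5A2* and *COL27A1* passed in the control clones and missed the threshold in the knockdown clones, and the test of the difference in response is given below. *COL5A1*, a type V chain that takes part in setting the diameter of fibrils, went from 6.27 and 5.80 to 8.62 and 8.26 in the control clones, a log2 fold change of 2.41 (5.31-fold, standard error 0.305, adjusted p = 0.00196, limma). In the knockdown clones it went from 5.34 and 6.06 to 6.97 and 6.68 (log2 fold change 1.12, adjusted p = 0.0670, limma). Another *COL5A1* probe, at chr9:137734063-137734122, was above background on no array. A further probe, at chr9:137600825-137600884, was so on 1 array only, treated TET1-KD2, with 4.90. All other values given for *COL5A1* are therefore those of 1 probe. *COL1A1*, the major chain of type I collagen, had 8.43 and 8.30 before and 9.07 and 9.63 after treatment in the control clones, a 1.98-fold rise (adjusted p = 0.0285), and 8.72 and 8.34 before and 9.51 and 9.04 after treatment in the knockdown clones (1.68-fold, adjusted p = 0.134, limma). Treated arrays of all 4 clones were above all untreated arrays for *COL1A1*. *COL5A2*, another type V chain, went from 6.15 and 6.10 to 7.01 and 7.08 in the control clones (1.89-fold, adjusted p = 0.0490), and *COL27A1* from 9.52 and 9.46 to 10.11 and 10.31 (1.65-fold, adjusted p = 0.0403, limma). In TET1-KD1 and TET1-KD2, *COL5A2* went from 6.52 and 6.40 to 7.29 and 6.35 and *COL27A1* from 9.30 and 9.47 to 10.11 and 9.56, and neither passed. These rises of *COL1A1*, *COL5A2* and *COL27A1* were lost under correction for the GC content of the probe, which left 9 of 29 genes in the control clones with a median of 0.53 and 8 in the knockdown clones with a median of 0.47. The shares and medians over all gene names under this correction are not given here, so these counts cannot be read as particular to collagen genes. For *COL11A2*, the brightest probe did not pass (responses 1.94, 0.17, -0.04 and 0.20), while the other 2 tested probes rose by 1.13 and 1.37 in the control clones (adjusted p = 0.00271 and 0.00414) and by 0.82 and 0.88 in the knockdown clones (adjusted p = 0.0232 and 0.0486, limma).

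Of the 5 tested basement membrane chains, *COL4A1* passed in the control clones and none in the knockdown clones. *COL4A1*, one of the ubiquitous type IV chains, went from 4.25 and 4.07, not well above background, to 5.36 and 5.47 in the control clones, a rise of at least 2.14-fold (adjusted p = 0.00581, limma). In TET1-KD1 and TET1-KD2 it went from 4.78 and 4.25 to 4.97 and 5.19 (log2 fold change 0.57, adjusted p = 0.149, limma). *COL4A2*, its partner chain, is transcribed in the opposite direction from the same promoter region, and it read 7.08 (CONT1) and 9.20 (CONT2) without drug, the widest gap between untreated control clones among the type IV genes. Its responses were 0.58 and -1.83 in the control clones and 1.29 and 1.54 in the knockdown clones, none of which passed (adjusted p = 0.455 and 0.206, limma). Responses of *COL4A4*, *COL4A5* and *COL4A6* lay between -0.86 and 1.28 in the 4 clones, and none of these genes passed in either kind of clone.

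When each treated array was set against the untreated array of its own clone, more genes passed in the control clones. With the clone as a block, 18 of 29 genes passed there, 17 higher and 1 lower, while 50.6% of all gene names did. In the knockdown clones, 9 passed with the block, all higher, while 15.7% of all gene names did. *COL6A1*, *COL9A3*, *COL10A1*, *COL12A1*, *COL13A1* and *COL17A1* were added as higher in the control clones, with adjusted p-values from limma between 0.0120 and 0.0494. The lower one was *COL9A1*, a type IX chain, which was above background on 1 untreated and no treated control array. The size of its fall is therefore not measured. *COL27A1* was lost (adjusted p = 0.0588), and *COL13A1* was added in the knockdown clones (log2 fold change 1.06, adjusted p = 0.0481, limma). In *COL6A1* the responses were 0.74 and 1.44 in the control clones, while its untreated signals differed between clones by up to 2.54 on the log2 scale.

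The promoter sequences of the genes with a lower limit or a large rise are shown because 5-aza-dC acts on methylation of CpG sites, with *COL15A1* as a CpG-rich gene that remained below background. They are the 250 bases before the start site in RefSeq (GRCh38.p14), 5′ to 3′ on the strand of the gene, and capitals mark each CG. The region between the start sites of *COL4A1* and *COL4A2* (chr13:110307158-110307283) is given on the plus strand. DNA methylation was not analysed here, so the letters show only where CpG sites lie.
COL8A2 (chr1:36125223-36125472, minus strand, 35 CG): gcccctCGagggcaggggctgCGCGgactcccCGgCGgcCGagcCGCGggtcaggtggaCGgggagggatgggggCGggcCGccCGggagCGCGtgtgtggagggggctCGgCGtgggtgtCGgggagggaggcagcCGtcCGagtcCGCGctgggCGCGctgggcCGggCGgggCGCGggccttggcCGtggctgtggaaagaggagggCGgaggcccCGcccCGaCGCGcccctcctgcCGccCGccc
COL23A1 (chr5:178590394-178590643, minus strand, 25 CG): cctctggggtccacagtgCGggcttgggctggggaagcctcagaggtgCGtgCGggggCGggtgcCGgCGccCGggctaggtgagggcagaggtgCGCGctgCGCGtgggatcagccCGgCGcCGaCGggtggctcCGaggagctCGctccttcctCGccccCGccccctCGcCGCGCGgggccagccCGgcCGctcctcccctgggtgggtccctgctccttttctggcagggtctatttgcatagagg
COL24A1 (chr1:86156773-86157022, minus strand, 16 CG): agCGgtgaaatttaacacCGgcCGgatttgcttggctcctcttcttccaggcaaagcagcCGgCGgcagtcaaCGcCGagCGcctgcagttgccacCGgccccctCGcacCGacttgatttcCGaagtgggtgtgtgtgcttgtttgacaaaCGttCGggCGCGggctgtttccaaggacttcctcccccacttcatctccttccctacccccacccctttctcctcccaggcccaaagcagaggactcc
COL6A3 (chr2:237414165-237414414, minus strand, 3 CG): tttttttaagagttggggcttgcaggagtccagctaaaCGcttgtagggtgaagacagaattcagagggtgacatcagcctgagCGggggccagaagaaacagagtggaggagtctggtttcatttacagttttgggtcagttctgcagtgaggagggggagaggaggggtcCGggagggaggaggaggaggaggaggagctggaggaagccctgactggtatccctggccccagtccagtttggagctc
COL15A1 (chr9:98943657-98943906, plus strand, 38 CG): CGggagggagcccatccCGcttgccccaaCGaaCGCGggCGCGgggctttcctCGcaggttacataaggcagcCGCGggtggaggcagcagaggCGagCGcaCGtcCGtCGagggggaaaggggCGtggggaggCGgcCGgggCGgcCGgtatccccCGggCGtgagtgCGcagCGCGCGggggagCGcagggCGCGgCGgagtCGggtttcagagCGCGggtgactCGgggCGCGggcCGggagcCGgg
COL4A1 to COL4A2 (126 bases, 20 CG): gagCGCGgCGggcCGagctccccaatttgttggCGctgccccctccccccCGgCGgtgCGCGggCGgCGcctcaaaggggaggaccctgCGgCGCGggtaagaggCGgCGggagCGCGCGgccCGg
*COL8A2*, *COL24A1* and *COL6A3*, which were above background on no untreated array and rose, were thus not alike in CpG content, from 35 CG in *COL8A2* to 3 in *COL6A3*. *COL4A1*, which was not well above background in the untreated control clones, had 38 CG in its 250 bases. RefSeq entries matched 31 of the 43 collagen genes by symbol, and where a gene had several start sites the one with most CG was counted. The 9 matched genes that rose in the control clones had a median of 22 CG (3 to 38), the 14 tested genes that did not had 14 (1 to 40), and the 8 genes not tested had 14.5 (6 to 38). Over all 27305 symbols the median was 12, and 93.9% of the 35116 promoters in the table hold at least 1 CG. *COL15A1*, with 38 CG, had signals between 1.82 and 2.43 on the 8 arrays.

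Whether the response differed between the kinds of clone was tested by the interaction of treatment and kind of clone. None of the 29 genes passed (limma, adjusted p below 0.05), while 5.27% of all gene names did, 3.63% with a higher and 1.64% with a lower value in the knockdown clones, and 4 collagen genes (24.2% of all gene names) had an unadjusted p below 0.05. The median difference was -0.27 over the collagen genes and 0.02 over all gene names. Both knockdown clones responded less than both control clones in 10 of 29 genes (34.5%), against 32% of all gene names, and more in 5 of 29 (17.2%), against 33.5%. The differences with the smallest p-values were -1.28 for *COL5A1* (adjusted p = 0.138), -0.89 for *COL24A1* (adjusted p = 0.102) and 1.93 for *COL14A1* (adjusted p = 0.0704, limma). With the clone as a block, 2 genes passed, *COL14A1* (adjusted p = 0.0485) and *COL9A1* (adjusted p = 0.0362, limma), while 4.87% of all gene names did. Both had the higher response in the knockdown clones, but *COL9A1* was above background on 3 arrays only, 2 of them of treated knockdown clones, and its difference has no measured size.

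**Figure D3:**
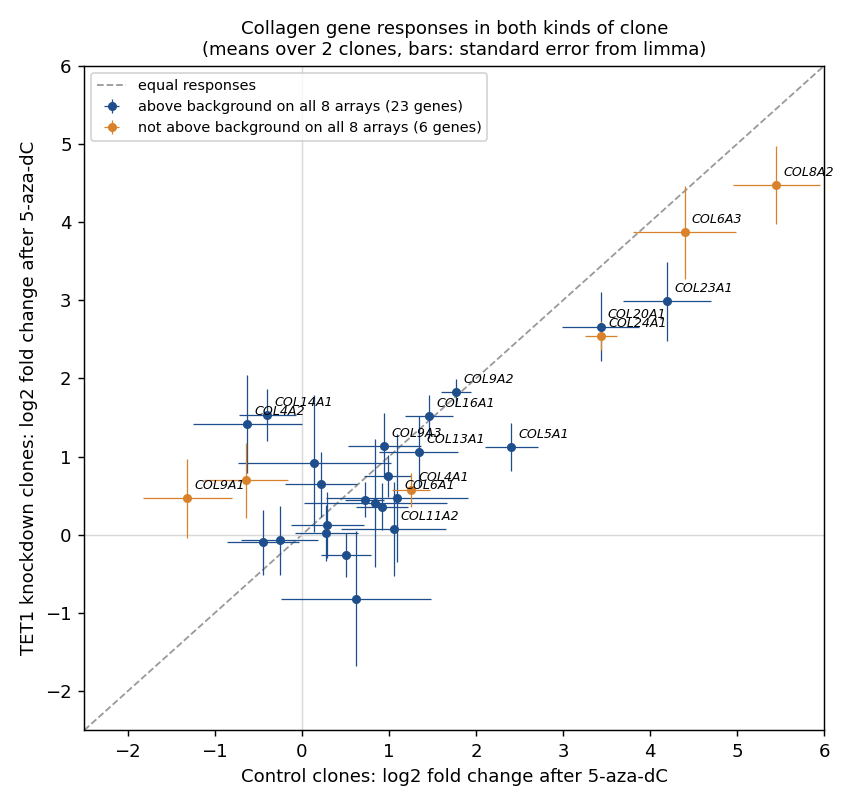
Log2 fold change after 5-aza-dC of the 29 tested collagen genes in the control clones (x axis) and the *TET1* knockdown clones (y axis). Points are means over 2 clones with standard errors from limma, the dashed line marks equal responses, and orange points are the 6 genes that were not above background on all 8 arrays; most of the large rises lie somewhat below the line, and *COL14A1*, *COL4A2* and *COL9A1* lie above it.

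After 5-aza-dC, 3 of 29 genes differed between the kinds of clone (limma, adjusted p below 0.05), while 18.4% of all gene names did, 10.7% higher and 7.71% lower in the knockdown clones. *COL5A1* was lower in the knockdown clones, with 6.97 and 6.68 against 8.62 and 8.26 (log2 difference -1.62, standard error 0.305, adjusted p = 0.0182), and so was *COL24A1* (log2 difference -1.17, standard error 0.182, adjusted p = 0.0102, limma). *COL14A1* was higher, with 5.75 and 6.75 against 4.86 and 4.71 (log2 difference 1.47, standard error 0.331, adjusted p = 0.0307, limma). Of the 3, *COL24A1* alone passed without treated CONT1, without treated CONT2 or without treated TET1-KD2, and *COL5A1* was also lost without treated TET1-KD1. Because of the separate slide for treated CONT1 and CONT2, slide and kind of clone cannot be told apart in this comparison.

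*COL14A1*, a FACIT of tendon and skin, depended on the probe. Its brighter probe did not pass in the control clones (responses -0.38 and -0.41) and rose in the knockdown clones (responses 1.20 and 1.86, log2 fold change 1.53, adjusted p = 0.0343, limma). This rise no longer passed under 14 of 24 alternatives, among them normexp, quantile normalization, the arrays of the first slide alone and leaving out any of 7 arrays, with values from 0.61 to 2.70. Its other probe was not well above background without drug (1.98 to 2.38) and reached 7.09 and 7.13 in the treated control and 5.85 and 6.28 in the treated knockdown clones, a rise of at least 6.94-fold (adjusted p = 4.96e-05) and at least 3.17-fold (adjusted p = 0.00016, limma). In treated cells this probe was lower in the knockdown clones (log2 difference -1.04, adjusted p = 0.0227, limma), in the opposite direction to the brighter probe. The brighter probe has 55% GC and the other one 35% GC.

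The probes of a gene also disagreed elsewhere. Of the 8 genes with more than 1 tested probe, 4 had probes with opposite signs in the control response, and in *COL16A1* and *COL27A1* probes passed in both directions. The second probe of *COL16A1*, at chr1:32148536-32148595 and with 68.3% GC, had 7.42 and 7.68 in the control clones without drug and 4.63 and 4.35 after 5-aza-dC, a fall of at least 7.65-fold (adjusted p = 0.00015, limma). In the knockdown clones it had 7.69 and 7.55 before and 7.69 and 7.90 after treatment (adjusted p = 0.598, limma). The first probe, at chr1:32118175-32118234 with 45% GC, rose in all 4 clones, as given above. In *COL27A1*, 1 probe with 55% GC fell by 0.83 in the control clones (adjusted p = 0.00874) while the brightest probe rose by 0.72 (adjusted p = 0.0403, limma). The remaining probe also rose by the test (adjusted p = 0.0390, limma). That last probe was above background on 1 treated and no untreated control array, so the size of its rise is not measured. Over all 39 tested collagen probes, 17 rose and 2 fell in the control clones, and 12 rose and none fell in the knockdown clones, while 41.8% and 11.8% of all tested probes passed. The median control response of collagen probes was 0.99 below 40% GC (13 probes) and -1.32 at 60% GC or more (3 probes), and the median knockdown response of the same probes was 0.47 in both groups.

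**Figure D4:**
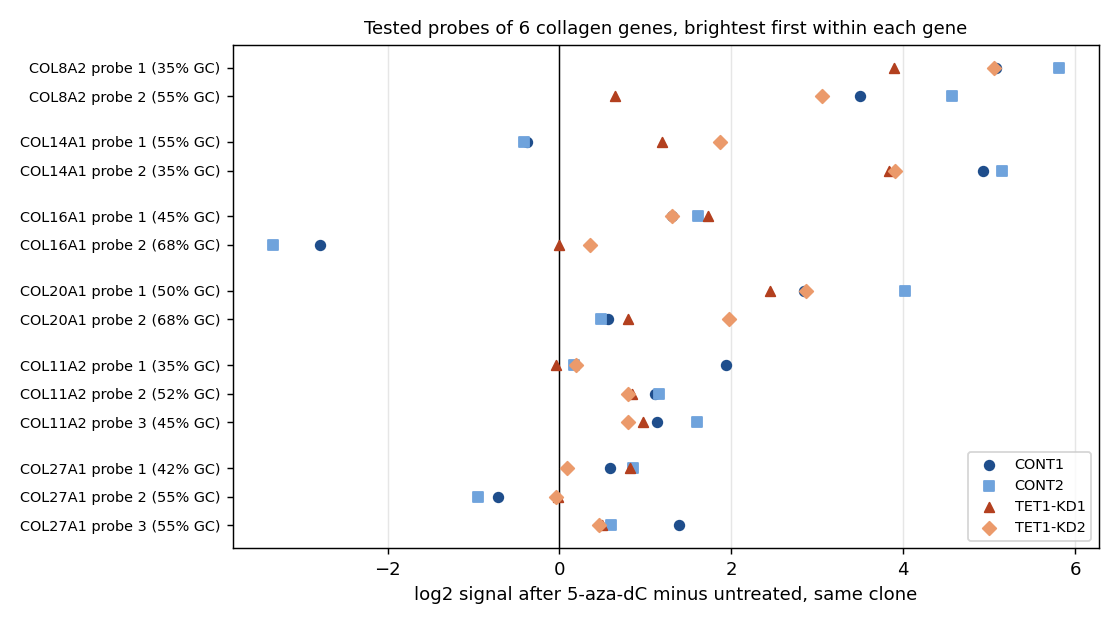
Responses of the single tested probes of 6 collagen genes, with the GC content of each probe: the x axis is the log2 signal after 5-aza-dC minus untreated in the same clone, and each point is 1 clone. The second probe of *COL16A1* lies near -3 in both control clones and near 0 in both knockdown clones, and the probes of *COL14A1* differ in all 4 clones.

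Without drug, no collagen gene differed between the kinds of clone (limma, adjusted p below 0.05), and only 0.0203% of all gene names did. At an unadjusted p below 0.05 there were 2 collagen genes, *COL9A2* (log2 difference -0.50) and *COL18A1* (-1.20), against 8.22% of all gene names. By the methods' t-test, the number was also 0. The median difference was -0.22 over the collagen genes and 0.01 over all gene names.

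Several bright collagens nonetheless stood apart in 1 knockdown clone. Untreated TET1-KD1 was the lowest of the 4 clones in 10 of the 23 genes above background on all arrays (34.7% of all such gene names), and in 4 of the 23 by more than 1 log2 unit from the next clone (2.45% of all such gene names). *COL6A1* had 13.23, 12.47 and 12.46 in CONT1, CONT2 and TET1-KD2 and 10.69 in TET1-KD1. *COL6A2*, which lies beside it, had 9.43, 9.34 and 9.12 against 6.71, and its second probe 8.92, 8.78 and 8.84 against 6.77. *COL18A1* had 12.93, 13.21 and 12.42 against 11.32. On the treated arrays, TET1-KD1 had 10.99 for *COL6A1*, 7.92 for *COL6A2* and 11.62 for *COL18A1*, the lowest value of the 4 clones for each gene.

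These 3 genes are neighbors near the end of the long arm of chromosome 21 (probes from 46933558 to 47549350 in hg19), and lower signals in TET1-KD1 extended to the genes around them. Over 28 other genes above background on all arrays from 45933558 to 48549350, untreated TET1-KD1 differed from the mean of the other 3 clones by a median of -0.74, and treated TET1-KD1 by -0.91. Over the 156 such genes of chromosome 21 the medians were -0.66 and -0.79, and over 15344 genes of all chromosomes 0.03 and 0.03. In the other 3 clones, the median over chromosome 21 lay between 0.19 and 0.29. The mean that each of them was set against includes TET1-KD1, so its low signals alone make these values positive. The part of this chromosome-wide difference in the 3 collagen genes was not tested.

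Other collagens of TET1-KD1 differed outside chromosome 21. *COL9A3*, on chromosome 20 and the other gene lower by more than 1 log2 unit, had 11.31 untreated against 12.95, 12.98 and 12.63 in CONT1, CONT2 and TET1-KD2. *COL12A1* was higher, with 12.90 against 10.99, 11.44 and 10.89, and its second probe had 8.71 against 7.09, 6.94 and 6.44. *COL17A1*, the collagen of hemidesmosomes that anchor epithelial cells, was also higher, with 6.98 against 4.63, 4.70 and 5.26. Since a single clone differed, none of these passed the test between the kinds of clone (adjusted p = 0.612 for *COL9A3*, 0.820 for *COL12A1* and 0.644 for *COL17A1*, limma).

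**Figure D5:**
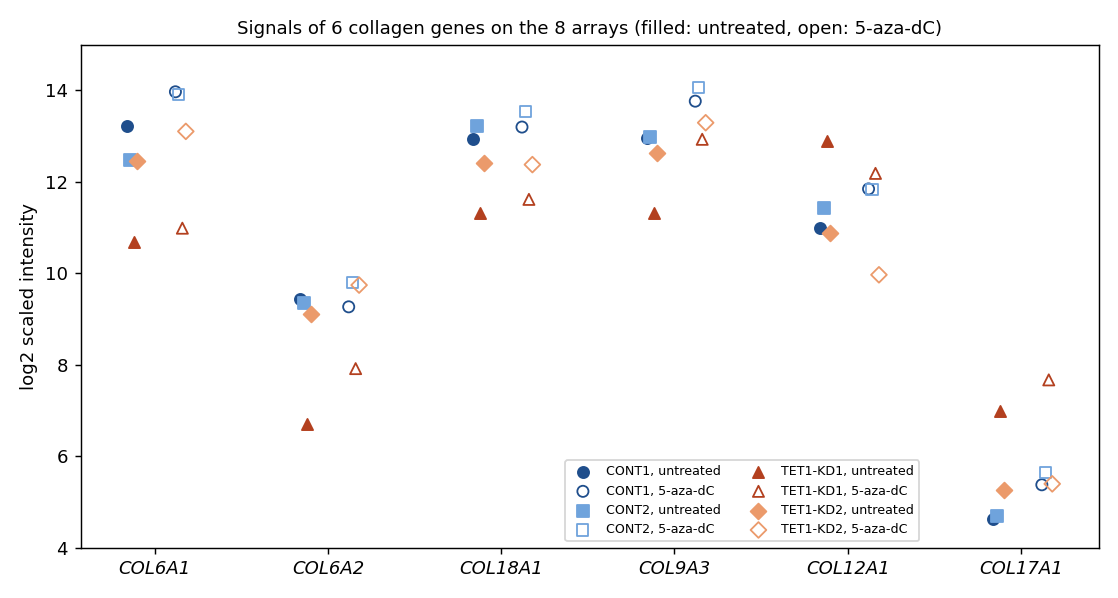
Log2 signal (y axis) of 6 collagen genes on the 8 arrays, filled for untreated and open for 5-aza-dC, with 1 point per array. TET1-KD1 has the lowest untreated signal in *COL6A1*, *COL6A2*, *COL18A1* and *COL9A3* and the highest in *COL12A1* and *COL17A1*.

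Genes for proteins that modify, secrete, bind and degrade collagen were read against the shares over all gene names, 41.8% in the control and 12.5% in the knockdown clones. Of 14 tested genes for modification and folding, 4 rose and 2 fell in the control clones (42.9%, near the share over all gene names) and none passed in the knockdown clones. *P4HA2*, a subunit of prolyl 4-hydroxylase, rose by 1.41 (adjusted p = 0.00305) in the control clones and *P4HB*, its partner subunit, by 0.75 (adjusted p = 0.00840), while *CRTAP*, a cofactor of prolyl 3-hydroxylation, fell from 5.44 and 5.77 to 3.55 and 3.86, not well above background (adjusted p = 0.00298, limma). *SERPINH1*, the collagen chaperone, and *LEPREL1*, a prolyl 3-hydroxylase, were the others that rose. After 5-aza-dC, *P4HA2*, *P4HB*, *SERPINH1* and *FKBP10* were lower in TET1-KD1 and TET1-KD2 than in controls (4 of 14, log2 differences from -1.78 to -0.65). Of all gene names, 18.4% differed in this comparison and 7.71% were lower. Slide and kind of clone cannot be told apart here either, since treated CONT1 and CONT2 lay on a separate slide.

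Of 12 tested genes for export, propeptide cleavage and crosslinking, 3 rose and 1 fell in the control clones (33.3%), among them *LOXL2*, a crosslinking lysyl oxidase (1.05, adjusted p = 0.0436), and 1 fell in the knockdown clones, *LOXL1* (-0.68, adjusted p = 0.0382, limma). Of 5 tested receptors, 2 rose and 1 fell in the control clones (3 of 5): *ITGA2*, the integrin chain that binds collagen on epithelial cells, rose by 0.80 there and by 1.43 in the knockdown clones (adjusted p = 0.0281 and 0.00949), and *DDR1*, a collagen-binding receptor kinase, changed by -1.55 and -0.37 (adjusted p = 0.00315 and 0.348, limma). Of 3 tested proteases, *MMP1*, an interstitial collagenase, and *MMP9*, a gelatinase, rose in both kinds of clone. *MMP1* went from 3.07 and 2.82 to 7.25 and 8.14 in the control clones and from 2.64 and 2.49 to 5.78 and 5.95 in the knockdown clones. It was not well above background on any untreated array, so the size of its rise is not measured. Of 14 tested basement membrane partners, 2 rose and 1 fell in the control clones (21.4%) and 1 rose in the knockdown clones (7.14%). *NID1*, which links laminin to type IV collagen, rose in both, from 2.37 and 2.18 to 6.42 and 6.44 and from 2.24 and 2.64 to 6.25 and 7.02 (adjusted p = 0.00022 and 0.00032, limma). *NID1* too was not well above background on any untreated array, and the size of its rise is not measured. In bulk RNA, fewer cells that express a gene and less RNA per cell cannot be told apart.

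Markers of other cell types were read beside these results. Of 7 epithelial markers, 5 were above background on both arrays of every group, and *CDH17* was above background on no array. Of 8 fibroblast markers, only *ACTA2* was above background on both arrays of the untreated groups, *PDGFRA*, *FAP*, *LUM* and *POSTN* were above background on no array, and *THY1* and *DCN* were above background on the 4 treated arrays only. The log2 of the summed fibroblast marker signal lay between 8.18 and 8.98 on the untreated arrays and between 10.34 and 10.73 on the treated arrays. Few genes carried these sums. *ACTA2* alone had 7.98 to 8.86 untreated, and on the treated arrays *ACTA2* had 9.02 to 9.92 and *THY1* 8.09 to 9.79. Of 5 endothelial and leukocyte markers, 3 to 4 were above background on both arrays of a group, with a log2 summed signal of 7.42 to 7.87 untreated and 8.54 to 9.53 treated. In the control clones 4 of them rose and 1 fell, *CDH5* (log2 fold change -2.10, adjusted p = 0.0190, limma). *COL3A1* and *COL1A2* were not above background on any array, as given above.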

How the data were processed

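The authors hybridized 1 RNA sample per clone and treatment to Agilent one-color 60-mer arrays and scanned and extracted them with Agilent Feature Extraction (10.7.3.1 per the file headers). The deposited processed signal of each spot is an intensity after background subtraction, and the value table deposited with the series holds the same intensity values. The study's methods name GeneSpring GX and t-tests with Benjamini-Hochberg adjustment, and the normalization is not given in the sources used here. Columns of per-sample values of other series numbered 0.

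Here, processed signals were divided by the 75th percentile of the array, brought back to a common scale and log2-transformed with a floor of 1, and spots of a probe were averaged. A probe counted as above background where a share of 0.5 or more of its spots was called so, and the 27287 of 50543 probes that did so on both arrays of any group were tested. All 8 arrays entered 1 linear model with 4 group means in limma 3.58.1 (R 4.3.3), with Benjamini-Hochberg adjustment over all tested probes and a threshold of 0.05, and each gene is given by its brightest tested probe (19688 gene names). Where a group was above background on neither array, the fold change is a nominal lower limit. It is taken against the lowest signal above background of each array, or against the measured signal where that was higher. No such limit is given for a gene whose brighter group was above background on 1 array only, although the medians with limits include such genes. The p-value printed with such a limit tests the fitted difference, in which signals below background enter as measured. The fits were tested on simulated data. The 75th percentile was an intensity of 395.5 to 623.7, 29490 to 34276 spots were above background per array, and no spot was saturated. The 2 arrays per group limit the precision. Array positions are hg19 coordinates from the array annotation, and no gene model of that build was used to assign exons.

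Replicate numbers mark clones, and the same clone was analyzed with and without drug. Deviations of arrays of the same clone from their group means correlated with r = 0.20 (control) and 0.48 (knockdown) over probes. The collagen members, the gene lists and the markers were chosen with earlier results of these data known. Values per array are given for collagen genes that passed a test and for the brightest 2 of each class, and up to 6 of the changed genes are named per other list. *COL4A2*, *COL4A6*, *COL9A1*, *COL11A2*, *COL17A1*, *COL1A2*, *COL3A1*, *COL15A1* and probes other than the brightest were chosen after their values had been seen. Alternatives were other background corrections, scalings, filters, GC and spike-in corrections, the clone as a block, the mean of probes, the methods' t-test and leaving out each array.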

Additional observations from a re-analysis of the deposited data

Results flagged for a closer look

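The second probe of *COL16A1* (A_33_P3210647, 68.3% GC) was, of the 39 tested collagen probes, the 1 with a different response to the drug in control and knockdown clones by the interaction test (fitted log2 difference 3.24, adjusted p = 0.00783, limma). Both treated control arrays were not well above background for this probe, so that the control fall is known only as at least 2.94 on the log2 scale and the fitted difference is no exact size. Its responses were about -3 in both control clones and near 0 in both knockdown clones, while the brighter probe of the gene rose in all 4 clones. The control arrays with drug lay on a slide of their own, and in treated cells this probe was at least 9.08-fold higher in TET1-KD1 and TET1-KD2 than in controls (adjusted p = 0.00109, limma). The part of the slide and of the GC content in this difference was not tested.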

How the results depend on the processing

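Over the genes that passed, 446 of 529 alternative values kept their direction and their side of the threshold, 82 no longer passed and 1 turned, *COL16A1* in the control clones with the mean of its tested probes (-0.80, adjusted p = 0.0137, limma). The counts that follow are of collagen genes alone, without the share over all gene names under the same setting. In the control clones, 7 genes passed by the methods' t-test, 10 to 12 with 1 array left out, 9 with GC correction, 15 with spike-in interpolation and 18 with the clone as a block. The knockdown clones gave 7 genes with the arrays of the first slide alone, 5 with the filter on all 8 arrays, 0 by the t-test, 9 with the block and 4 to 8 with 1 array left out (4 without treated TET1-KD2 or untreated TET1-KD1). After 5-aza-dC, 1 gene differed between the kinds of clone with only the 4 arrays compared, 0 by the t-test, 5 with the replicate block (here a block of replicate numbers, which joins unrelated clones), 5 with GC correction, 6 with spike-in interpolation and 1 to 4 with 1 array left out (1 without treated CONT1, and 1 of the 3 genes also without treated CONT2 or TET1-KD2). Without drug, the number was 0 throughout. The difference in response passed for 2 genes with the clone as a block, 1 with spike-in interpolation, 1 with the mean of probes and 0 to 1 with 1 array left out (1 without treated CONT2, TET1-KD1 or TET1-KD2).

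The median in the control clones (0.92) was 0.58 with normexp, 0.77 with quantile normalization, 0.61 with an offset of 50, 0.64 without filter, 0.53 with GC correction, with and without the block, 1.12 with spike-in interpolation (which shifted the median of all genes to 0.29) and 0.80 to 0.95 with 1 array left out. In the knockdown clones (0.69) it was 0.49, 0.47 without filter, 0.47 with GC correction, with and without the block, and 0.60 to 1.21. Between untreated kinds of clone (-0.22) it was -0.15 with normexp, -0.18 with quantile normalization, -0.12 with the offset, 0.0044 without filter, -0.12 with GC correction, with and without the block, -0.10 with spike-ins, -0.21 with the mean of probes and -0.22 to -0.097 with 1 array left out. Between treated kinds of clone (-0.44) it was -0.57 without filter, -0.77 with spike-ins, -0.31 with the mean of probes and -0.66 to -0.24. The median difference in response (-0.27) was -0.56 without filter, -0.67 with spike-ins and -0.42 to 0.0022, the last without treated CONT2. The causes were not tested. Signal over background limits *COL6A3*, *COL8A2* and *COL24A1*, for which only lower limits of the rise can be given.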
